A study of Homo sapiens with 16 samples.

Results

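Spindle assembly factors are proteins that build, focus or bundle the microtubules of the mitotic spindle. The members described here are 10 human genes, ASPM, TPX2, HMMR, TACC3, CKAP2, CKAP2L, NUSAP1, PRC1, DLGAP5 and TROAP, and every probe set whose only gene symbol in the platform annotation was 1 of them was taken. That gave 17 of the 54675 probe sets of the array. A further 6 probe sets named CKAP2 together with immunoglobulin genes and were left out. Each gene was read at its brightest probe set, and the other 7 probe sets are described apart. The brightest were 219918_s_at for ASPM, 210052_s_at for TPX2, 207165_at for HMMR, 218308_at for TACC3 and 218252_at for CKAP2. They were 229610_at for CKAP2L, 218039_at for NUSAP1, 218009_s_at for PRC1, 203764_at for DLGAP5 and 1568596_a_at for TROAP.

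The study examined how SMYD2, a lysine methyltransferase, acts on ectopic RB in SAOS, a human osteosarcoma cell line without working retinoblastoma protein (RB). Total RNA was hybridised to 16 arrays in 4 groups of 4. The control group was wild type SAOS without transfection. The RB group was transiently transfected with human RB1, the SMYD2 group with mouse SMYD2, and the RB plus SMYD2 group with both. No group given an empty vector is named in the labels. In comparisons with control, the effect of transfection itself therefore cannot be told apart from that of the constructs. RB against SMYD2, and RB plus SMYD2 against either alone, compare transfected groups. The arrays of each group were numbered 1, 3, 4 and 5. The labels do not say whether these were separate cultures. The p-values set each group difference only against the spread between these samples, and that spread may be technical.

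Most of these genes are transcribed late in the cell cycle, from G2 into mitosis, and their proteins are removed as cells leave mitosis. In quiescent and early-cycle cells their repression involves RB-family proteins and the DREAM complex, which acts at cell cycle genes homology region (CHR) elements, while NF-Y binds CCAAT boxes in the same promoters. ASPM holds microtubule minus ends at spindle poles, TPX2 nucleates microtubules under control of Ran and activates Aurora A, and PRC1 crosslinks antiparallel microtubules of the midzone.

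The promoter windows in RefSeq on GRCh38.p14 run from 250 bases before to 50 bases after each gene start, and 8 of the 10 members had one, TPX2 and TROAP being the others. The sequences below are the 120 bases before the start, 5′ to 3′ along the gene's strand. They are shown because 6 members shared both motifs and TACC3 and CKAP2 held none. Of the pair without a match, TACC3 fell with RB, and CKAP2 had the smallest RB difference of the members. Capitals mark the CHR motif (TTTGAA or TTTAAA) and the NF-Y motif (CCAAT), searched on both strands, so that TTCAAA and ATTGG are matches on the other strand. Coordinates are chr1:197146670-197146789 on the minus strand for ASPM, chr5:163460512-163460631 on the plus strand for HMMR, chr2:112764610-112764729 on the minus strand for CKAP2L and chr15:41332761-41332880 on the plus strand for NUSAP1. They are chr15:90994536-90994655 on the minus strand for PRC1, chr14:55191586-55191705 on the minus strand for DLGAP5, chr4:1720511-1720630 on the plus strand for TACC3 and chr13:52455868-52455987 on the plus strand for CKAP2.
ASPM: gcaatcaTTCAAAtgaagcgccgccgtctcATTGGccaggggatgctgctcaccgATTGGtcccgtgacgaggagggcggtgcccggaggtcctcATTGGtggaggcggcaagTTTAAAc
HMMR: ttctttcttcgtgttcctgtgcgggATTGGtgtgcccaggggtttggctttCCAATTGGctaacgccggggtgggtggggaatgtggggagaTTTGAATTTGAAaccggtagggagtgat
CKAP2L: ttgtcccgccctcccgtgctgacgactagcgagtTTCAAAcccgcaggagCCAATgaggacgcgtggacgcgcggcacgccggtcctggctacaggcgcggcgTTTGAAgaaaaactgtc
NUSAP1: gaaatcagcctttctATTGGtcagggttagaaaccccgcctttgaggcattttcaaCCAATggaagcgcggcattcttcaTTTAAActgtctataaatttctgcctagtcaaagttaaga
PRC1: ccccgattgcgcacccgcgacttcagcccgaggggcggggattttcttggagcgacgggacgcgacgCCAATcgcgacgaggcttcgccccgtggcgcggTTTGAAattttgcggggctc
DLGAP5: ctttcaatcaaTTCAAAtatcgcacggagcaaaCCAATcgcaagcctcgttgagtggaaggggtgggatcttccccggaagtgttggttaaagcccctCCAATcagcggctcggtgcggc
TACC3: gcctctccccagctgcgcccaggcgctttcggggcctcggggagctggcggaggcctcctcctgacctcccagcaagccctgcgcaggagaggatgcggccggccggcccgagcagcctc
CKAP2: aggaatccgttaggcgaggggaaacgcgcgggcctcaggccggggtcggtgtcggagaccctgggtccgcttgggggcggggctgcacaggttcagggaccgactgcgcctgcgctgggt

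Over the whole windows, CHR and NF-Y motifs occurred together in 6 of the 8 members' windows and in 9.27% of the 35116 windows of the table. The CHR motif alone was in 24.0% and the NF-Y motif in 34.6% of all windows. In HMMR the CCAAT matches at -69 and -66 lie on opposite strands and overlap. An E2F motif (TTTGGCGC, TTTCGCGC, TTTCCCGC or TTTGCCGC) was found in NUSAP1 and no other member, and in 3.31% of all windows. TACC3 and CKAP2 held none of these motifs. A match describes letters in this window, not a bound site.

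**Figure D1:**
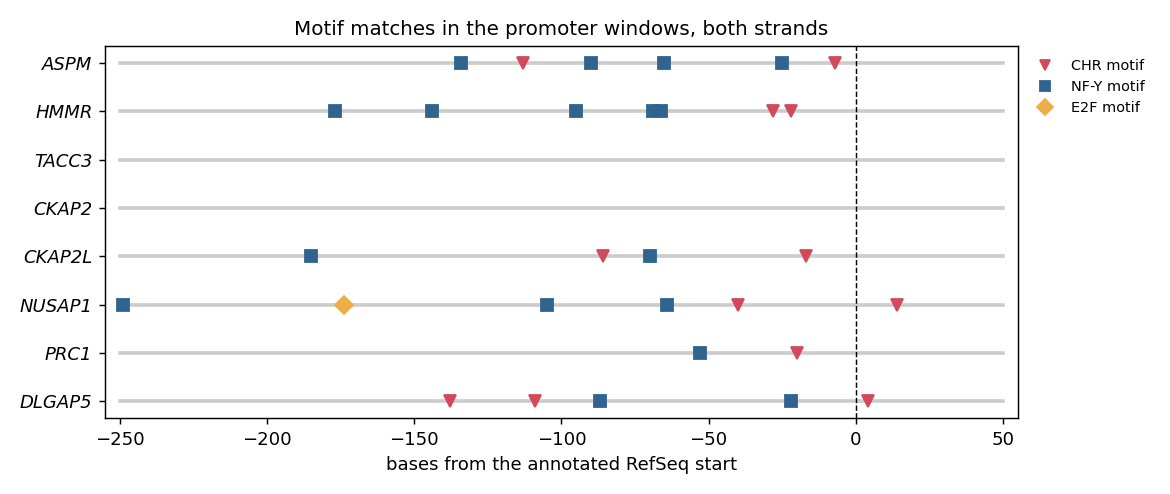
Positions of the CHR, NF-Y and E2F motif matches in the promoter windows of the 8 members that had one, in bases from the gene start (horizontal axis), with 1 line per gene. CHR and NF-Y matches occur together in 6 genes, and TACC3 and CKAP2 carry no match.

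The arrays were alike in scale, with medians of 5.59 to 5.64, and RB1 signal was raised where RB was given (1.22 ± 0.31 above control on the log2 scale, limma adjusted p = 0.041). Of 8 osteoblast-lineage markers measured, 1 was dim (mean log2 signal under 6), SPP1 at 5.62, and the others included RUNX2 at 12.42, COL1A1 at 13.54 and ALPL at 12.15. The average of the 8 was 10.78 to 11.32 in control arrays and 11.22 to 11.59 in RB arrays. The 4 leukocyte markers measured were all dim, as were 3 of 4 endothelial markers. Of 5 epithelial markers 2 were dim, KRT19 (4.81) and CDH1 (4.11), while EPCAM read 9.40, KRT18 9.74 and KRT8 6.54. The log2 ratio of the 3′ to the 5′ control probe set of ACTB, a measure of RNA quality, was 3.53 on array 1 of the SMYD2 group and 2.46 on array 1 of control, against 0.54 to 1.63 on the others. The same ratio of GAPDH was 0.16 on array 1 of the SMYD2 group and 0.06 on array 1 of control, against -0.01 to 0.10 on the others. By GAPDH, array 1 of control therefore lay within the range of the other arrays.

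With RB alone, 7 of the 10 genes fell against control: ASPM, HMMR, TACC3, NUSAP1, PRC1, DLGAP5 and TROAP, by 1.52-fold to 1.78-fold. Of all 19775 genes, 1.71% were called lower. The median difference of the 10 members was -0.69 on the log2 scale, and that of all genes was 0.01. TPX2, CKAP2 and CKAP2L were also lower in their means but did not pass the limma test. Fewer cells in late cell cycle phases and less of these RNAs per cell cannot be told apart in bulk RNA.

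Among proteins of the spindle poles, ASPM read 10.30, 10.64, 10.78 and 10.84 (log2 signal, arrays 1, 3, 4 and 5) in control and 9.67, 9.86, 9.77 and 9.93 with RB. The groups did not overlap, and ASPM fell by 0.83 ± 0.19 (SE, n = 4 per group, limma adjusted p = 0.019). That call was lost when control 4 (adjusted p = 0.0733), control 5 (0.0756), RB 1 (0.0551) or RB 4 (0.0651) was left out. With SMYD2 alone it read 9.86, 10.49, 10.85 and 10.86, and with both constructs 9.22, 9.76, 9.33 and 9.29.

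HMMR, a receptor for hyaluronan that also acts at spindle poles, read 11.29, 11.36, 11.29 and 11.26 in control and 10.71, 10.86, 10.62 and 10.59 with RB. All RB arrays lay below all control arrays, and the fall was 0.60 ± 0.08 (limma adjusted p = 0.000745). With SMYD2 alone the arrays read 11.20, 11.26, 11.26 and 11.22, and with both constructs 10.24, 10.50, 10.14 and 10.13. TROAP, a microtubule-associated protein of centrosomes and the spindle, read 10.54, 10.46, 10.68 and 10.63 in control and 9.77, 9.73, 9.71 and 9.80 with RB. It fell by 0.83 ± 0.09 (limma adjusted p = 0.000145) without overlap. With SMYD2 alone TROAP read 10.82, 10.74, 10.63 and 10.68, and with both 9.43, 9.76, 9.36 and 9.37. It was the member whose SMYD2 mean exceeded the control mean.

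TPX2 read 11.39, 11.82, 12.04 and 12.12 in control and 10.90, 11.14, 11.29 and 11.27 with RB. The arrays did not overlap, but the difference of -0.69 ± 0.22 (95% interval -1.16 to -0.22) did not pass (limma adjusted p = 0.127). Its control arrays had the largest SD of the members in that group, 0.33. With the replicate number as a block, TPX2 passed (limma adjusted p = 0.00402), and it also passed without array 1 of the SMYD2 group (0.0235). With SMYD2 alone TPX2 read 10.92, 11.44, 12.14 and 12.12, and with both 10.52, 10.99, 10.88 and 10.73.

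**Figure D2:**
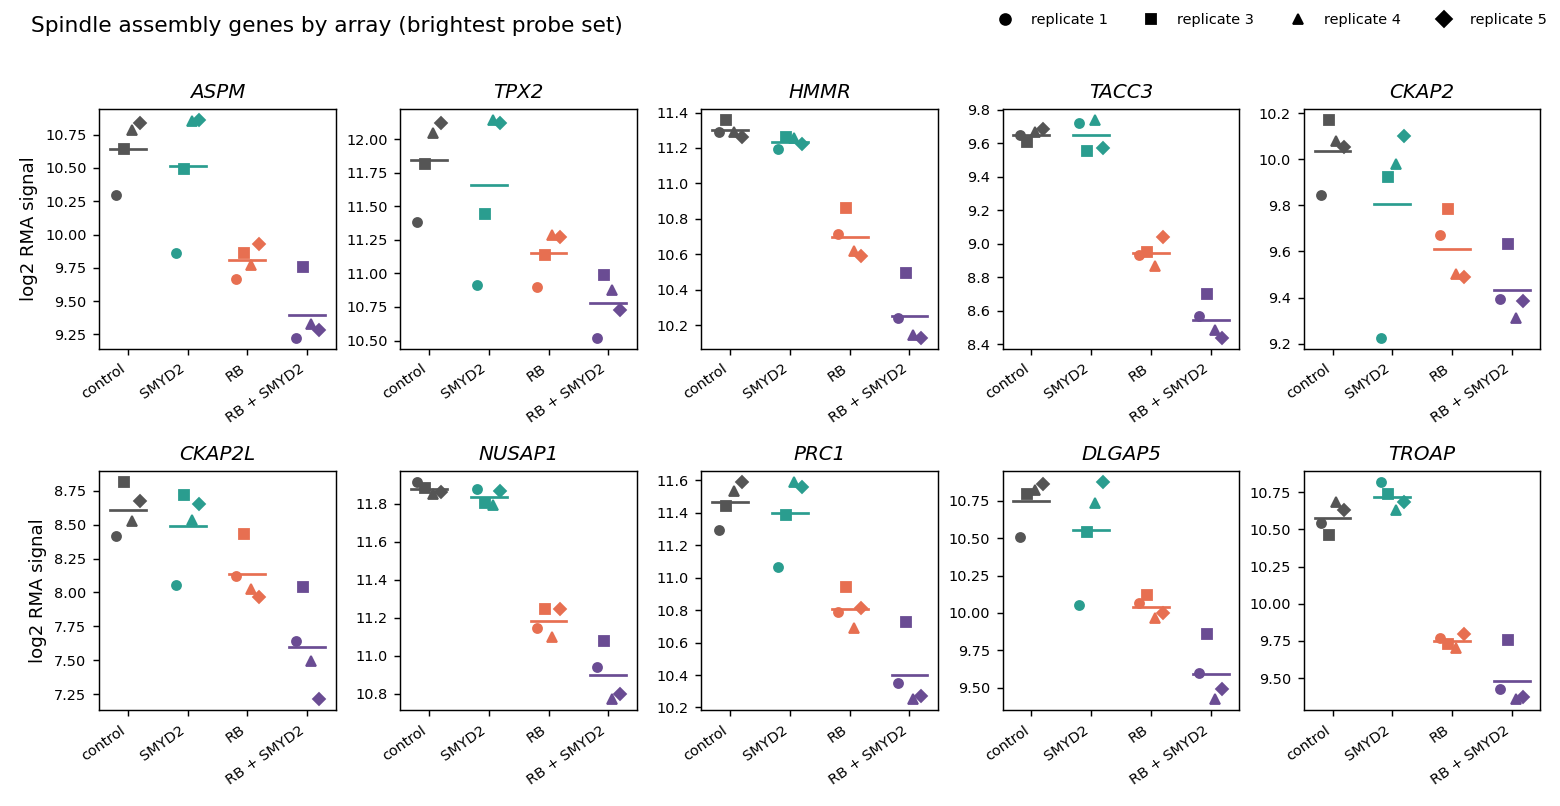
Log2 signal (vertical axis) of each member at its brightest probe set on every array, by group, with the group mean. The RB plus SMYD2 arrays lie below all control arrays for each of the 10 members.

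TACC3, which crosslinks kinetochore fibres together with clathrin and CKAP5, read 9.65, 9.61, 9.67 and 9.68 in control and 8.93, 8.95, 8.87 and 9.04 with RB. No arrays overlapped between these groups, and TACC3 fell by 0.71 ± 0.08 (limma adjusted p = 0.000174). With SMYD2 alone it read 9.72, 9.55, 9.74 and 9.57, and with both 8.57, 8.70, 8.48 and 8.44. DLGAP5, also called HURP, stabilises kinetochore fibres. It read 10.51, 10.80, 10.83 and 10.86 in control and 10.06, 10.12, 9.96 and 10.0001 with RB, a fall of 0.71 ± 0.14 without overlap (limma adjusted p = 0.0101). With SMYD2 alone DLGAP5 read 10.05, 10.54, 10.74 and 10.88, and with both 9.60, 9.86, 9.42 and 9.49.

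NUSAP1, which bundles spindle microtubules near chromosomes, read 11.92, 11.88, 11.85 and 11.86 in control and 11.15, 11.25, 11.10 and 11.25 with RB. It fell by 0.69 ± 0.07, with the smallest adjusted p of the members in this comparison (limma, 9.62e-05), and the groups did not overlap. With SMYD2 alone it read 11.88, 11.80, 11.80 and 11.87, and with both 10.94, 11.08, 10.77 and 10.80. PRC1, the midzone crosslinker, read 11.29, 11.44, 11.53 and 11.59 in control and 10.79, 10.94, 10.69 and 10.81 with RB. It fell by 0.65 ± 0.12 (limma adjusted p = 0.00589) without overlap. With SMYD2 alone PRC1 read 11.07, 11.38, 11.59 and 11.56, and with both 10.35, 10.72, 10.25 and 10.27.

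CKAP2 and its paralogue CKAP2L bind spindle microtubules. CKAP2 read 9.84, 10.17, 10.08 and 10.05 in control and 9.67, 9.78, 9.50 and 9.49 with RB. The difference of -0.42 ± 0.15 did not pass (limma adjusted p = 0.174), although the arrays did not overlap. With SMYD2 alone CKAP2 read 9.23, 9.92, 9.98 and 10.10, and with both 9.39, 9.63, 9.31 and 9.39. Without array 1 of the SMYD2 group, which enters the fit's shared estimate of the spread, CKAP2 passed the test (limma adjusted p = 0.0121). CKAP2L read 8.42, 8.82, 8.53 and 8.67 in control and 8.12, 8.43, 8.02 and 7.97 with RB. These groups overlapped, and the difference of -0.47 ± 0.17 did not pass (limma adjusted p = 0.186), but it did with the replicate block (0.0287). With SMYD2 alone CKAP2L read 8.05, 8.72, 8.53 and 8.65, and with both 7.64, 8.04, 7.49 and 7.21.

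All 10 members were lower with RB than in the control array of the same number in 4 of 4 pairs, as were 13.2% of all genes. For 9 of 10 the RB and control arrays did not overlap, against 5.2% of all genes with RB lower. Averaged over the members, the difference of RB minus control was -0.54, -0.59, -0.78 and -0.74 in pairs 1, 3, 4 and 5. Without array 1 of the SMYD2 group, 9 members and 4.98% of all genes passed, counted in either direction. With the replicate block, 9 members and 7.07% of all genes passed in either direction. The matching figures in the main fit were 7 members and 2.96% of all genes.

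Adding RB to SMYD2 lowered 9 of the 10 members, by 1.83-fold to 2.36-fold, while 4.25% of all genes were called lower. TROAP fell by 1.24 (limma adjusted p = 5.82e-07), ASPM by 1.12 (0.000959), TACC3 by 1.10 (5.82e-07) and PRC1 by 1.00 (4.49e-05). TPX2 fell by 0.88 (limma adjusted p = 0.0221), a call lost without SMYD2 4 (0.0741), SMYD2 5 (0.0728), RB plus SMYD2 1 (0.0713) or RB plus SMYD2 5 (0.0655), and with only the compared groups in the fit (0.0906). CKAP2 differed by -0.38 and did not pass (limma adjusted p = 0.158), but passed without array 1 of the SMYD2 group (-0.57, adjusted p = 0.00137). The arrays of 8 members did not overlap, against 6.61% of all genes. The median over the members was -0.97.

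Against control, RB plus SMYD2 lowered all 10 members, by 1.52-fold for CKAP2 to 2.36-fold for ASPM, with 4.2% of all genes called lower. The arrays of no member overlapped, against 7.79% of all genes with this order. CKAP2 fell by 0.61 (limma adjusted p = 0.0183), and this was the member whose call depended on single arrays. It was lost without control 3 (0.0565), control 4 (0.0554), control 5 (0.0503), RB plus SMYD2 4 (0.0676) or RB plus SMYD2 5 (0.0563).

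RB against SMYD2, each given alone, left 6 members lower with RB, when 1.86% of all genes were called lower. They were ASPM, HMMR, TACC3, NUSAP1, PRC1 and TROAP, and their differences ran from -0.54 for HMMR to -0.97 for TROAP. DLGAP5 differed by -0.52 (limma adjusted p = 0.06), TPX2 by -0.51 (0.269), CKAP2L by -0.36 (0.317) and CKAP2 by -0.20 (0.572). The ASPM call (limma adjusted p = 0.0442) was lost in 13 of the 16 fits that left out 1 array, up to an adjusted p of 0.121 without RB 4. Without array 1 of the SMYD2 group, 9 members and 4.49% of all genes passed, counted in either direction, against 3.25% of all genes in the main fit.

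Compared with RB alone, RB plus SMYD2 was lower in the mean of all 10 members at their brightest probe sets. None of the differences passed the limma test and 0% of all genes did. HMMR differed by -0.44 ± 0.08 (95% interval -0.62 to -0.27, limma adjusted p = 0.552), TACC3 by -0.40 ± 0.08 (-0.57 to -0.23, 0.552) and CKAP2L by -0.54 ± 0.17 (-0.90 to -0.18, 0.867). With the replicate number as a block, the limma adjusted p was 0.0781 for HMMR and 0.292 for TACC3 and CKAP2L, and 0 members passed. At an unadjusted p under 0.05 there were 8 of 10 members and 856 genes, which is 4.33% of all. The HMMR, TACC3, NUSAP1 and DLGAP5 arrays did not overlap between the groups, and 1.98% of all genes were lower without overlap. The same-numbered array was lower in 4 of 4 pairs for 9 members, against 9.54% of all genes, and in 3 of 4 for TROAP. The median of the members was -0.40. RB1 signal read 7.40, 7.43, 8.10 and 7.87 with RB and 7.90, 7.90, 9.25 and 9.62 with both. Its mean was higher with both by 0.97 ± 0.31 (95% interval 0.31 to 1.62), and RB1 was lower with both in 0 of 4 same-numbered pairs. The difference had an unadjusted limma p of 0.00648 but did not pass (limma adjusted p = 0.880), and the arrays overlapped. The part of RB1 signal in the members' differences was not tested.

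**Figure D3:**
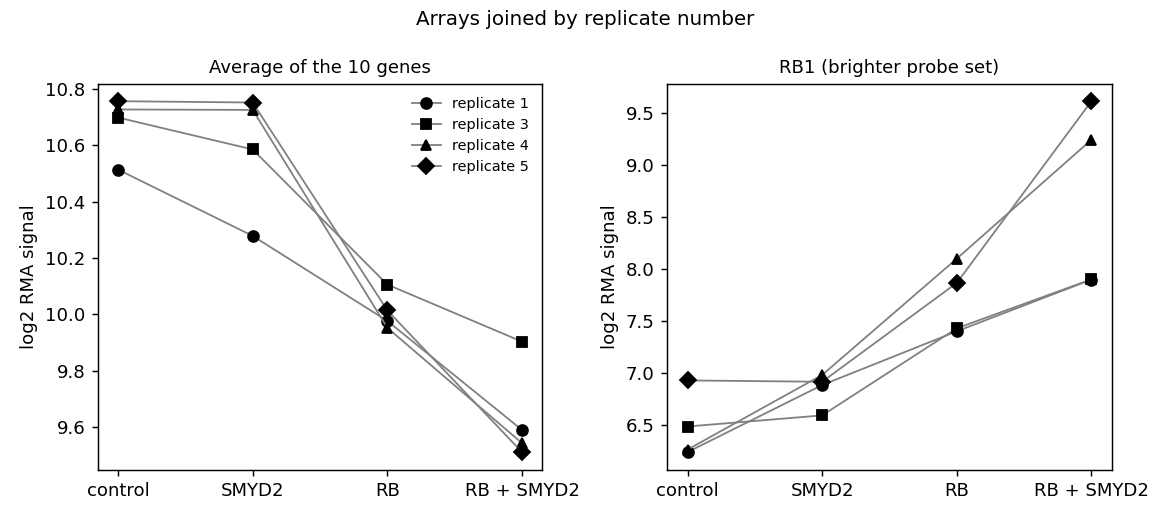
The average log2 signal of the 10 members and the log2 signal of RB1 (vertical axes) on each array by group, with arrays of the same replicate number joined. The members' average is 10.51 to 10.76 in control, 9.95 to 10.11 with RB, 10.28 to 10.75 with SMYD2 and 9.51 to 9.90 with both.

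SMYD2 alone did not bring any member past the limma test, and 0% of all genes passed. At an unadjusted p under 0.05 there were 0 members and 572 genes (2.89%). The differences ran from -0.23 for CKAP2 to 0.14 for TROAP, with a median of -0.09 and adjusted p-values of 0.991 to 0.998. The 95% intervals were -0.24 to 0.11 for HMMR, -0.17 to 0.16 for TACC3 and -0.19 to 0.11 for NUSAP1, but wider for TPX2, at -0.66 to 0.28. HMMR was the member whose SMYD2 arrays all lay below control, an order found in 0.602% of all genes. The highest SMYD2 array read 11.2594 and the lowest control array 11.2599, so the groups barely separated. At the second HMMR probe set, 209709_s_at, they overlapped. Without array 1 of the SMYD2 group the median was -0.00016 and 5 of 10 members were negative.

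**Figure D4:**
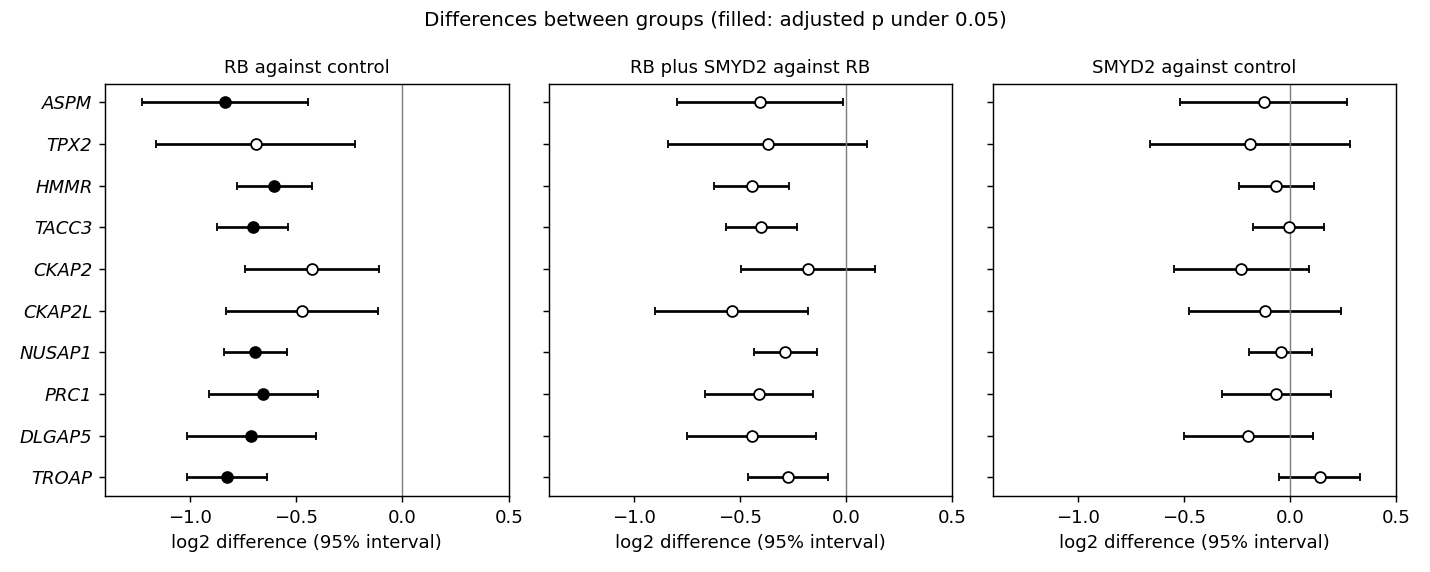
Differences of log2 signal (horizontal axis) with 95% intervals from the limma fit for each member in RB against control, RB plus SMYD2 against RB, and SMYD2 against control; filled points passed at an adjusted p under 0.05. The RB differences lie between -0.83 and -0.42, and the SMYD2 differences lie around 0.

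The interaction, which is the RB difference with SMYD2 minus that without it, did not pass for any member or any other gene (0%). It was negative for 9 members, with a median of -0.31 on the log2 scale, and was 0.05 ± 0.21 for CKAP2. Of the 17 probe sets it was negative for 14, against 49.9% of all probe sets. For ASPM it was -0.28 at the brightest set, but -0.004 ± 0.25 at 239002_at and 0.21 ± 0.49 at 232238_at. At an unadjusted p under 0.05 there were 4 members, HMMR, TACC3, NUSAP1 and TROAP, and 582 genes (2.94%). In 9 of 10 members the group means ran in the order control, SMYD2, RB and RB plus SMYD2, and TROAP had SMYD2 above control. The neighbours control and SMYD2, and RB and RB plus SMYD2, did not differ past the test in any member. SMYD2 and RB differed past it in 6 of the 10 members and not in the other 4.

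Reading all 17 probe sets in 1 fit over 54675, 10 fell with RB against control, where 0.662% of all probe sets were called lower. The other ASPM sets differed by -1.14 ± 0.17 (239002_at, limma adjusted p = 0.0032) and -1.29 ± 0.35 (232238_at, 0.0944). The second NUSAP1 set fell by 0.97 ± 0.15 (0.0031), the second TROAP set by 0.72 ± 0.09 (0.0007), and the second HMMR set differed by -0.60 ± 0.21 (limma adjusted p = 0.248). Both remaining CKAP2 sets were dim, with group means of 4.14 to 4.50, and 230128_at differed by -0.02 ± 0.09. In RB plus SMYD2 against control 16 of 17 fell, against 2.12% of all probe sets, and 230128_at, the other one, differed by 0.05 ± 0.09. In RB plus SMYD2 against RB 0 of 17 passed, and 15 were lower in the mean, against 47.5% of all probe sets. The same-numbered array was lower in 4 of 4 pairs for 12 sets, against 7.93% of all probe sets. ASPM differed there by 0.01 ± 0.17 at 239002_at and -0.14 ± 0.35 at 232238_at, where its brightest set gave -0.41. CKAP2 230128_at differed by 0.06 ± 0.09.

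The probe sets of 1 gene could differ on the arrays with the highest ACTB ratios. On array 1 of the SMYD2 group, the signal minus the mean of the other 3 arrays of the group was -1.05 for HMMR 209709_s_at and -0.05 for HMMR 207165_at. It was -0.98 for TPX2, -0.87 for ASPM 219918_s_at and -0.78 for CKAP2 218252_at, but 0.10 for TACC3 and 0.05 for NUSAP1 218039_at. Of the 17 sets, 8 were at least 0.4 lower on that array and 8 were within 0.2, a division made after the values were seen. For array 1 of control, the same measure was -0.56 for HMMR 209709_s_at and -0.02 for HMMR 207165_at. There TPX2 was at -0.61, ASPM 219918_s_at at -0.45 and CKAP2 218252_at at -0.26, but TACC3 at -0.005 and NUSAP1 218039_at at 0.05. The part of RNA quality in these values was not tested.

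**Figure D5:**
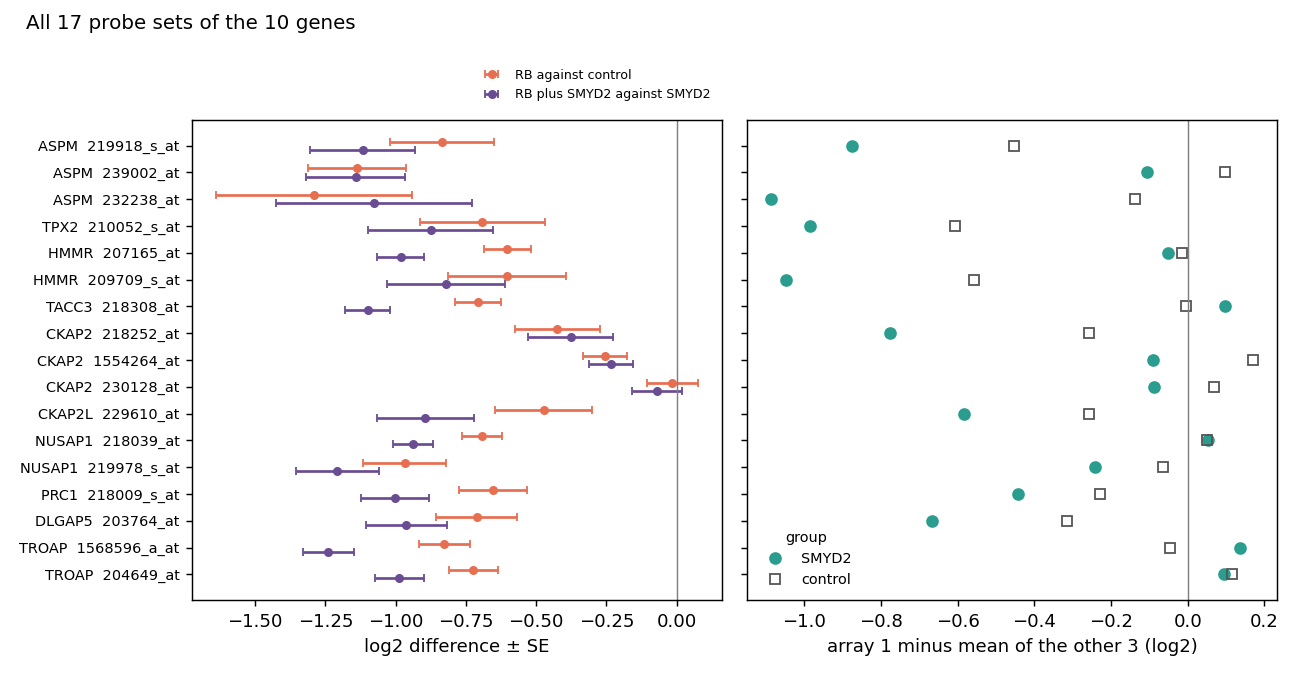
Left, differences of log2 signal with standard errors for the 17 probe sets in RB against control and RB plus SMYD2 against SMYD2. Right, log2 signal of array 1 minus the mean of the other 3 arrays in the SMYD2 and control groups, where HMMR 209709_s_at is at -1.05 and HMMR 207165_at at -0.05 in the SMYD2 group.

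Among 24 partners and cofactors measured, 8 fell with RB against control and 0 rose, with a median of -0.39. Of all genes, 1.71% were called lower and 1.24% higher in this comparison. KIF11, the kinesin that pushes spindle poles apart, fell by 0.77 ± 0.18 (limma adjusted p = 0.0237), and SPAG5, an adaptor of kinetochores and poles, by 0.76 ± 0.12 (0.00155). AURKA, the kinase that TPX2 activates, fell by 0.73 ± 0.11 (limma adjusted p = 0.00128), although 1 of its 3 probe sets differed by 0.12. KIF4A, the kinesin that PRC1 recruits to the midzone, fell by 0.72 ± 0.12 (0.0023). The count was 4 without RB 4, 5 without control 4 or control 5, 12 without array 1 of the SMYD2 group and 14 with the replicate block. Calls over all genes, in either direction, moved from 585 to 286, 290, 318, 984 and 1399 in the same fits. KIF11 lost its call in 4 of the 16 fits without 1 array, with an adjusted p of up to 0.091. RB plus SMYD2 lowered 12 against SMYD2 and 14 against control, where 4.25% and 4.2% of all genes were called lower. RB against SMYD2 lowered 8, or 4 without RB 4 and 5 without RB 3 or SMYD2 5. There 1.86% of all genes were called lower. In either direction 642 genes were called, or 304 without RB 4, 400 without RB 3 and 528 without SMYD2 5.

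Of 18 genes of microtubule nucleation, 6 fell with RB and 0 rose, with a median of -0.28, where 1.71% of all genes were called lower. The augmin subunits HAUS8, HAUS1 and HAUS7, which branch new microtubules from old ones, fell by 0.71 ± 0.09 (limma adjusted p = 0.000408), 0.55 ± 0.12 (0.0193) and 0.47 ± 0.09 (0.00671). HAUS2 differed by -0.44 ± 0.18 and did not pass (limma adjusted p = 0.277). The count was 2 without RB 3 or RB 4 and 3 without control 4, and HAUS1 lost its call in 2 of the 16 fits without 1 array. Without RB 3, RB 4 or control 4, calls over all genes in either direction were 411, 286 and 290, against 585. RB plus SMYD2 lowered 7 of these genes against SMYD2, 10 of them without array 1 of the SMYD2 group, and 8 against control. The shares of all genes called lower were 4.25% against SMYD2 and 4.2% against control. In either direction, 7.19% of all genes passed against SMYD2, and 8.86% without array 1 of the SMYD2 group. RB against SMYD2 lowered 5, where 1.86% of all genes were called lower.

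In the Ran and importin list, which supplies the signal that frees TPX2 near chromosomes, 2 of 7 fell with RB and 0 rose. Of all genes, 1.71% were called lower. RCC1, which loads Ran with GTP at chromatin, fell by 0.54 ± 0.13 (limma adjusted p = 0.0333), a call lost in 6 of the 16 fits without 1 array. RANBP1, which aids hydrolysis on Ran, fell by 0.36 ± 0.06 (0.00255), with 1 of its 3 probe sets at 0.04. RANGAP1 differed by -0.34 (limma adjusted p = 0.122) and RAN by -0.20 (0.0618). The count was 1 without control 3, control 4, RB 3, RB 4 or RB 5, and 4 with the replicate block. Calls over all genes, in either direction, were 286 to 478 without those arrays and 1399 with the block, against 585. RB plus SMYD2 lowered 5 of these genes against either SMYD2 or control, where 4.25% and 4.2% of all genes were called lower. RB against SMYD2 lowered 2, where 1.86% of all genes were called lower. That count was 1 without RB 3, RB 4, RB 5 or SMYD2 3, and 5 with the replicate block. Calls over all genes, in either direction, were 304 to 533 without those arrays and 1831 with the block, against 642.

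Of 18 tubulins and interphase microtubule proteins, 1 fell and 1 rose with RB, and the median was -0.04. Of all genes, 1.71% were called lower and 1.24% higher. TUBA1A, an alpha-tubulin, rose by 0.64 ± 0.09 (limma adjusted p = 0.000766). STMN1, which destabilises microtubules, fell by 0.53 ± 0.10 (0.00902), while its other probe set differed by -0.04. With the replicate block 2 fell, when 1399 of all genes were called in either direction, against 585 without it. RB plus SMYD2 lowered 3 and raised 1 against either SMYD2 or control. Of all genes, 4.25% were called lower and 2.94% higher against SMYD2, and 4.2% and 3% against control. Against SMYD2 the number lowered was 1 without RB plus SMYD2 1, and 6 without array 1 of the SMYD2 group or with the block. Against control it was 5 without array 1 of the SMYD2 group or with the block. Calls over all genes against SMYD2 were 1422, or 1127 without RB plus SMYD2 1, 1753 without SMYD2 1 and 2812 with the block. Those against control were 1424, or 2032 without SMYD2 1 and 2562 with the block. RB against SMYD2 lowered 1 and raised 1, where 1.86% of all genes were called lower and 1.39% higher. The number lowered was 0 without RB 3, RB 4, RB 5, SMYD2 3, SMYD2 4 or SMYD2 5. It was 2 without SMYD2 1 or with the block. Calls over all genes in either direction were 642, or 304 to 533 in the fits with 0 lowered. They were 888 without SMYD2 1 and 1831 with the block. In RB plus SMYD2 against RB, SMYD2 against control and the interaction, 0 genes of these 4 lists passed.

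The genes whose profile over the 16 arrays lay closest to the members' average, by root mean square difference of centred log2 values, were MELK (0.0496), NDC80 (0.0645), NCAPG (0.0672), NCAPG2 (0.0672) and KIF2C (0.0688). PRC1 itself lay at 0.0398 and was the nearest of all 19775 genes. The average contains each member's own values, which favours the ranks of the members. CKAP2 was the farthest member, at 0.242 and rank 302, and TPX2 lay at 0.226 and rank 245. A flat profile would lie at 0.446.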

How the data were processed

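RNA of 16 SAOS samples was measured on 1 Affymetrix expression array design. The authors deposited log2 signals per probe set, and RMA is the tool named in the submitters' processing notes, with no version. The sources used here do not say if the arrays were normalized as 1 set. Gene symbols came from the platform annotation, in which 41097 probe sets carried 1 symbol, 1801 several and 11777 none. A gene was represented by its single-symbol probe set with the highest mean over the 16 arrays (19775 genes). Coordinates belong only to RefSeq promoter windows.

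Groups were compared in limma 3.58.1 (R 4.3.3), with lmFit on the 4 group means and a trended eBayes, two-sided, and p-values adjusted by Benjamini-Hochberg over all genes at a threshold of 0.05. Adjusted p-values are from that fit. Errors are SE for differences and SD for means. The fit was tested on simulated data. The members, the lists of related genes and the rule for named genes (all members and probe sets, and up to 4 genes of each list with the largest difference in RB against control) were chosen with earlier results of these data known. The lists' counts without single arrays and with the block were added after seeing the data. The number of arrays limits the precision.

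Pairing was checked from the correlation of deviations from group means. Every same-numbered pair correlated above 0.1 (lowest 0.145) for each pair of groups except RB with SMYD2 (lowest -0.08). The block result is therefore printed where it changed a call, and for HMMR, TACC3 and CKAP2L in RB plus SMYD2 against RB. Alternatives covered scaling, the probe set, dim genes, the arrays in the fit, array weights, the trend, the block and leaving out single arrays. Plots were made in matplotlib 3.10.9.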

Additional observations from a re-analysis of the deposited data

How the results depend on the processing

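The counts of members that passed and the median differences stayed within 1.5 times, or within the spread between arrays, under the alternatives other than those named here. With array weights, all 10 members passed in RB against SMYD2 and the medians were -0.72 there and -1.14 in RB plus SMYD2 against SMYD2. The direction turned in SMYD2 against control for TACC3 when quantile normalization was applied once more (0.023) and for ASPM (0.015) and PRC1 (0.00056) with array weights, and in the interaction for CKAP2 with array weights (-0.093). The cause was not tested. Leaving out each array gave, in SMYD2 against control, -0.24 to 0.095 for ASPM, -0.35 to 0.059 for TPX2, -0.036 to 0.026 for TACC3, -0.19 to 0.028 for CKAP2L and -0.13 to 0.047 for PRC1, and in the interaction -0.15 to 0.15 for CKAP2. Members passing then ran from 6 to 9 in RB against control, 8 to 10 in RB plus SMYD2 against SMYD2, 9 to 10 against control and 5 to 9 in RB against SMYD2. Over all genes, RB against control called 585, but 286 without RB 4, 290 without control 4, 318 without control 5, 347 without RB 5, 984 without SMYD2 1 and 2296 with array weights. RB plus SMYD2 against SMYD2 called 1422, but 859 without RB plus SMYD2 4, 904 without RB plus SMYD2 5, 748 with only those groups in the fit and 3141 with array weights. Against control it called 1424, but 899 without RB plus SMYD2 4, 925 without RB plus SMYD2 5 and 3687 with array weights. RB against SMYD2 called 642, but 304 without RB 4, 400 without RB 3, 415 without RB 5, 193 with only those groups and 1790 with array weights.

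With the replicate block, 9 members and 1399 genes passed in RB against control, 9 and 2812 in RB plus SMYD2 against SMYD2, 10 and 2562 against control, and 8 and 1831 in RB against SMYD2. The members gained were TPX2 and CKAP2L in RB against control, and TPX2 (adjusted p = 0.024) and DLGAP5 (0.0158) in RB against SMYD2. For RB with SMYD2, the correlations of same-numbered arrays ran from -0.08 to 0.43, so not all were above 0.1. The block changed no other member's call. In RB plus SMYD2 against RB 0 passed with the block, and 9 members and 1236 genes had an unadjusted p under 0.05. RMA keeps no detection call, so a dim signal was not separated from background.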

Other observations

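The 6 probe sets that name CKAP2 together with immunoglobulin genes had mean log2 signals of 4.29 to 6.39 over the 16 arrays. Their differences in RB against control ran from -0.10 to 0.06, and none passed limma over all probe sets. CKAP2 at 218252_at differed by -0.42 in the same comparison.

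RB1 signal with both constructs exceeded control of the same number by 1.66, 1.42, 2.98 and 2.69 for numbers 1, 3, 4 and 5. The members' average differed in the same pairs by -0.92, -0.80, -1.18 and -1.25. With RB alone, RB1 read 7.40, 7.43, 8.10 and 7.87, where control read 6.24, 6.49, 6.27 and 6.93. In those pairs the members' average differed by -0.54, -0.59, -0.78 and -0.74. A relation between RB1 signal and the members was not tested.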
